A study of Mus musculus with 3 samples.

Results

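Among mouse embryonic stem cells kept for 24 h without FGF4, 99 cells with no Meg3 UMI (Meg3-zero cells) were compared with the 119 cells that had the most Meg3 (Meg3-high cells). Together they made up 218 of the 2222 cells sequenced. They were chosen by their measured Meg3 counts within the 0 ng/ml library: of its 373 cells, 359 were intact (at most 10% mitochondrial UMIs and a total within 3-fold of the library median), and these were ranked by Meg3 UMIs per 10000 UMIs of the cell. A UMI (unique molecular identifier) marks 1 captured mRNA molecule. The high class was the top 1 in 3 of the intact cells, and the remaining 141 cells, with at least 1 Meg3 UMI, formed a middle class. Meg3 therefore set the classes, and its values are given below as a description only.

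All cells were of the E14tg2a line with the genotype Fgf4 -/-, so that they cannot make FGF4 of their own; the number of clones is not stated in the labels. They were seeded in ES medium with LIF and then held in N2B27 with Chiron (a GSK3 inhibitor that activates Wnt signalling) and heparin. FGF4 was given at 0, 5 or 50 ng/ml, and each dose was 1 library of the 10x Genomics 3' v3.1 chemistry. The 0 ng/ml cells are the subject here, and the 5 and 50 ng/ml libraries served to see whether classes drawn by the same rule looked alike with FGF4.

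Each dose was a single library and cells of a library are not replicates, so no test was made. Every interval below covers counting error at 95% and nothing else. The 7 embryonic stem cell markers checked (Pou5f1, Sox2, Nanog, Esrrb, Zfp42, Klf4 and Sall4) were all measured, and their summed level at full depth was 1666 CPM (counts per 1000000 UMIs) in Meg3-zero, 1612 in middle and 1579 in Meg3-high cells. The lowest single cell stood at 754, 542 and 287 CPM in the same order, and 1 Meg3-high cell had 0 Nanog UMIs. No primitive endoderm, trophectoderm or primitive streak marker of those checked reached 5 CPM, and 4 of 8 fibroblast markers (Col3a1, Lum, Dcn and Postn) had 0 UMIs. The fibroblast markers summed to 2.64 CPM in Meg3-zero, 3.92 in middle and 4.61 in Meg3-high cells, the primitive endoderm markers to 1.98, 2.59 and 4.16 CPM, and the primitive streak markers to 7.26, 8.88 and 9.66 CPM. Of a wider fibroblast list of 12 genes, 1 reached 5 CPM: Vim, which encodes vimentin and is not specific to fibroblasts, at 162 CPM in Meg3-zero and 204 in Meg3-high cells (1.26, 1.14 to 1.41). The 6 trophectoderm markers summed to 6.98 CPM in Meg3-zero, 8.94 in middle and 17.2 in Meg3-high cells, and the 6 neuroectoderm markers, of which 3 reached 5 CPM, to 128, 126 and 124 CPM. Their part in the results below was not tested. No cell barcode was shared between libraries. Median totals were 103477 UMIs in Meg3-zero, 115829 in middle and 102837 in Meg3-high cells. Median mitochondrial shares were 5.26%, 5.1% and 5.51% in the same order. Every cell was thinned at random to 35000 UMIs for the comparison of the classes, and values at full depth are given where they differ.

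Meg3 is a long non-coding RNA of the imprinted Dlk1-Dio3 domain. In this domain the maternal chromosome makes the non-coding RNAs Meg3, Rian and Mirg, in the same direction, while the paternal chromosome makes the protein-coding genes Dlk1, Rtl1 and Dio3. In pluripotent stem cells the domain is known for losing its maternal transcripts together, through gain of DNA methylation, in some cell lines and subclones. On chromosome 12 (GENCODE M21, GRCm38), Dlk1 lies at chr12:109452823-109463336, Meg3 at chr12:109541001-109571726, Rtl1 on the minus strand at chr12:109589193-109600330, Rian at chr12:109603940-109661716, Mirg at chr12:109729764-109749460 and Dio3 at chr12:110279068-110281097.

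Windows around RefSeq starts of the maternal transcripts are shown because these 3 RNAs were found together in the cells. Each runs from 250 bases before to 50 bases after a start that RefSeq gives on the plus strand (GRCm38.p6), at chr12:109540746-109541045 for Meg3, chr12:109603695-109603994 for Rian and chr12:109734731-109735030 for Mirg; capitals mark CpG dinucleotides.
Meg3: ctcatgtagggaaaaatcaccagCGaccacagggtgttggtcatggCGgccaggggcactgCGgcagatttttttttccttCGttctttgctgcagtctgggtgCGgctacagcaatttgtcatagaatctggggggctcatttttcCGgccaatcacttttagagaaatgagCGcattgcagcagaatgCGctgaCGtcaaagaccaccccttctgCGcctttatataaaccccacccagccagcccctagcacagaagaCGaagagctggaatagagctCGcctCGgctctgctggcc
Rian: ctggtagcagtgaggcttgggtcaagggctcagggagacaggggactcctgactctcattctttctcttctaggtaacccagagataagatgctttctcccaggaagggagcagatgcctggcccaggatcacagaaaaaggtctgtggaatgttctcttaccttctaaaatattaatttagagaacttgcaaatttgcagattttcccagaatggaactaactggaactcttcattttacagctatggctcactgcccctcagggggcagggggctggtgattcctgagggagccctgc
Mirg: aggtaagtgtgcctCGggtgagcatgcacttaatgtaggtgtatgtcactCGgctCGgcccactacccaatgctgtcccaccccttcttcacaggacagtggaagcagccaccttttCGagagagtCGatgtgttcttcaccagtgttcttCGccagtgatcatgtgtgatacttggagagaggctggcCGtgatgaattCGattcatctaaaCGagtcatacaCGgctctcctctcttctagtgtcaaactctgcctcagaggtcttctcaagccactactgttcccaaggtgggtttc
The Meg3 window held 13 CpGs, the Mirg window 10 and the Rian window 0. The Mirg window lies inside the gene as GENCODE M21 places it, so it does not show the GENCODE start of Mirg. Of the 32817 RefSeq windows of this length, 37.9% held at least 13 CpGs and the median was 7. TGACGTCA, the palindromic cAMP response element, was found on both strands of the Meg3 window, beginning 57 bases before the start, and in 1.79% of all windows. TATATAA was found in 2 overlapping places, 1 on each strand, beginning 27 and 28 bases before the start, and in 3.25% of all windows. Neither motif was found in the Rian or the Mirg window. A second Meg3 window that RefSeq gives, around a start inside the gene, held 1 CpG and neither motif.

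Meg3 itself ranged from 0 in the zero class to 4.69 UMIs per 10000 in the highest cell. The high class began at 0.482 per 10000, with a median of 0.913, and the highest middle cell lay at 0.471, so the boundary between them falls within a continuous range. The boundary to the zero class lies at the limit of detection: 49 middle cells had exactly 1 Meg3 UMI. In a single Meg3-zero cell, 0 UMIs allow a level of up to 0.152 to 0.624 per 10000 (3 UMIs of its total; median 0.290). Meg3-zero cells made up 27.6% of the intact cells (exact binomial interval 23.0 to 32.5%). This share was 34.2% among the 120 shallowest cells, 30% among the next 120 and 18.5% among the 119 deepest.

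Rian and Mirg followed Meg3, although neither was used to choose the cells. Rian, which hosts box C/D small nucleolar RNAs, stood at 4.04 CPM in Meg3-zero cells (14 UMIs), 11.1 in middle and 39.1 in Meg3-high cells (163 UMIs). The ratio of high over zero was 9.69 (5.61 to 18.1), and 12.2 (8.52 to 18) at full depth. Mirg, which hosts a cluster of microRNAs, had 0 UMIs in the 99 Meg3-zero cells, 1.82 CPM in middle cells and 8.64 CPM in Meg3-high cells (36 UMIs). With the 0 of the zero class set to 3 UMIs, the ratio of high over zero was 9.98, which is not a lower bound. The lower bound of the counting interval, which does not use the 3 UMIs, was 7.71. A second random draw gave 14.1 (3.63 to 122). At full depth, with 3 UMIs against 107, the ratio was 28.1 (9.36 to 138).

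Cells with Meg3 more often held Rian and Mirg too. At full depth Rian was found in 23 of 99 Meg3-zero cells (23.2%), 77 of 141 middle cells (54.6%) and 109 of 119 Meg3-high cells (91.6%). No Meg3-zero cell had more than 3 Rian UMIs, whereas Meg3-high cells had a median of 3 and a maximum of 39. Mirg was found in 3 Meg3-zero cells, 22 middle cells and 62 Meg3-high cells. In 75 of the 99 Meg3-zero cells none of the 3 transcripts was found at full depth. After thinning, 12 Meg3-zero cells had a Rian UMI (12.1%, 6.42 to 20.2%) and 0 had a Mirg UMI, which allows up to 3.66% of cells with a UMI at this depth and says nothing of lower expression (exact binomial upper bound), against 78 (65.5%, 56.3 to 74.0%) and 32 (26.9%, 19.2 to 35.8%) of the Meg3-high cells. All cells sequenced were of 1 type, so the share of cells to which free RNA alone gives a UMI could not be measured.

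**Figure D1:**
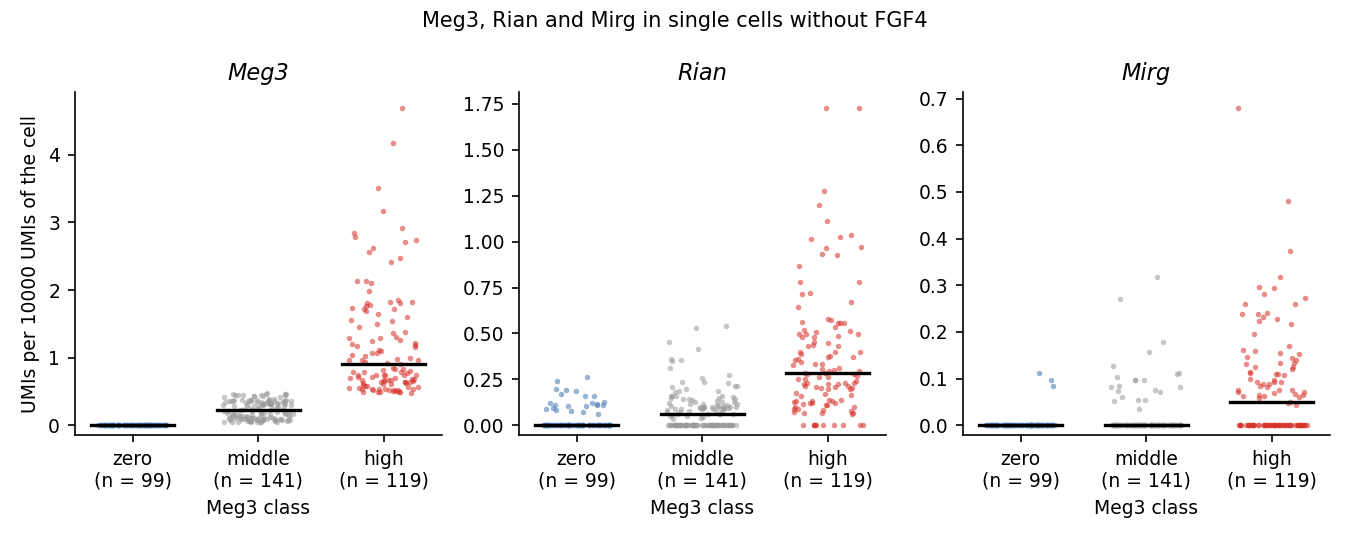
UMIs of Meg3, Rian and Mirg per 10000 UMIs of the cell at full depth (vertical axes, each panel with its own scale) in the 99 Meg3-zero, 141 middle and 119 Meg3-high cells of the 0 ng/ml library, with 1 point per cell and a bar at the class median. Meg3 chose the classes; Rian was found in 109 of 119 Meg3-high and 23 of 99 Meg3-zero cells.

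Classes were also drawn by Rian. With the 150 cells lacking Rian against the 119 cells highest in Rian, Meg3 stood at 13.0 and 100.1 CPM, a ratio of 7.73 (5.97 to 10.1). Mirg was then 41.6 times as high, from 1 UMI in the Rian-zero cells (6.96 to 1692). Across the 359 cells at 35000 UMIs, Meg3 and Rian had a Pearson r of 0.386 and a Spearman rho of 0.446, and 103 cells held both. Both counts come from the same cells of 1 library at 1 depth, and counts are low. Meg3 and Mirg had a Spearman rho of 0.345. Rian and Mirg both lay under 20 CPM. Of the 5428 genes with at least 20 CPM, none reached a Spearman rho of 0.3 with Meg3. The highest was Kcnq1ot1 at 0.23, another imprinted long non-coding RNA, on chromosome 7.

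Without FGF4, the proportions among the 3 RNAs had overlapping counting intervals in the middle and high classes. Per 100 Meg3 UMIs there were 37.7 Rian UMIs in middle cells (31.2 to 45.4) and 31.6 in Meg3-high cells (28.5 to 35). At 5 ng/ml the values were 38.6 (36.6 to 40.6) and 30.1 (28.9 to 31.4), and at 50 ng/ml 37.7 (35.9 to 39.5) and 29.9 (28.7 to 31.1), so there the intervals did not overlap. Meg3 drew these classes, so this order is a description only. For Mirg without FGF4 the values were 7.4 (4.96 to 10.7) and 6.84 (5.57 to 8.32). Over all intact cells, Rian per 100 Meg3 UMIs was 34.5 at 0, 33.2 at 5 and 32.8 at 50 ng/ml, so the proportion was alike at doses where Meg3 itself differed.

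The paternally expressed genes of the domain were scarcely detected. Dlk1, a membrane protein related to Notch ligands, had 3 UMIs in Meg3-zero and 5 in Meg3-high cells. At full depth its level was 2.89 times as high in Meg3-high cells (1.14 to 8.71). Dio3, a thyroid hormone deiodinase, had 8 and 9 UMIs, a ratio of 0.936 (0.321 to 2.79). Rtl1, a retrotransposon-derived gene, had 0 and 2 UMIs. None of them reached 5 CPM over the intact cells, and for Rtl1 a difference was not detectable at this depth.

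Genes outside the domain but within 2 Mb of Meg3 were mostly level. Of 67 genes in this window, 19 beside the maternal RNAs were measured (at least 5 CPM over the intact cells). Of these, 2 were at least 1.5-fold higher in Meg3-high cells and 0 lower, where 4.36% of the 9187 genes at this level were higher and 1.77% lower. The 2 were Evl, an actin regulator, at 25.7 against 16.7 CPM (1.53, 1.1 to 2.15, and 1.41 at full depth) and Tecpr2, at 5.76 against 2.31 CPM (2.5, 1.08 to 6.43, and 1.52 at full depth). The median log2 ratio of the 19 was 0.08, beside 0.02 for all 9187 genes. Shares of UMIs per chromosome were taken at full depth. The UMIs of chromosome 12 without the 3 RNAs took up 3.54% of the total in Meg3-high and 3.55% in Meg3-zero cells. Over the other autosomes and X, the ratio of such shares ran from 0.978 for chromosome 1 to 1.02 for chromosome 19. The Y chromosome took up 0.0716% of the UMIs in Meg3-zero and 0.0816% in Meg3-high cells, a ratio of 1.14 (1.11 to 1.17), also at full depth.

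Dnmt3l was the 1 DNA methylation gene past 1.5-fold. It encodes a catalytically inactive partner of the de novo methyltransferases Dnmt3a and Dnmt3b. Its level was 6.35 CPM in Meg3-zero (22 UMIs), 13.0 in middle and 19.9 in Meg3-high cells (83 UMIs), a ratio of 3.14 (1.94 to 5.28). At full depth the ratio was smaller, 2.05 (1.61 to 2.62), with Dnmt3l found in 42.4%, 44.7% and 58.0% of the cells of the 3 classes. When Rian drew the classes it was 1.78 (1.24 to 2.59). The direction was shared, while the size depended on how cells were drawn and on depth. Over the intact cells of each library, Dnmt3l stood at 13.7 CPM without FGF4, 141 at 5 and 172 at 50 ng/ml. Dnmt3a stood at 38.7 against 47.5 CPM (1.23, 0.982 to 1.54; 1.22, 1.09 to 1.38 at full depth) and Dnmt3b at 54.8 against 61.5 CPM (1.12, 0.925 to 1.36). The maintenance methyltransferase Dnmt1 (0.981), its partner Uhrf1 (1.02), Tet1 (0.959) and Tet2 (0.996), which oxidise methylcytosine, had ratios between 0.959 and 1.02. Of the 10 members measured of 11 listed, 1 was at least 1.5-fold higher and 0 lower (4.36% and 1.77% of all genes at this level), and their median log2 ratio was 0.03. Zfp57 and Trim28, which protect imprints from loss of methylation, had ratios of 0.928 (0.775 to 1.11) and 1.04 (0.980 to 1.1).

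Direct targets of FGF and ERK signalling lay within 1.5-fold between the classes where measured. Of 20 listed, 8 reached 5 CPM without FGF4, and 0 of them were at least 1.5-fold higher or lower, at 35000 UMIs as at full depth. Of all genes at this level, 4.36% were higher and 1.77% lower at 35000 UMIs, and 1.42% and 0.512% at full depth. A count of 0 among 8 genes therefore does not set them apart from all genes. Their median log2 ratio was -0.11 at 35000 UMIs and 0.15 at full depth, so its sign depended on depth. At 35000 UMIs the counting interval lay wholly above 1 for 0 of the 8 and wholly below 1 for 1. At full depth the counts were 3 and 1, with no such count made for all genes. Etv5, a transcription factor of the ETS family, was at 197 CPM in Meg3-zero and 171 in Meg3-high cells (0.871, 0.783 to 0.969). Egr1, an immediate early gene, was at 50.8 and 43.7 CPM (0.860, 0.695 to 1.06). The feedback inhibitor Spry2 was at 8.37 and 6.24 CPM (0.746, 0.422 to 1.31; 1.24, 0.909 to 1.7 at full depth), and Ccnd1, cyclin D1, at 148 and 152 CPM (1.03, 0.912 to 1.16).

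A broader set held the 111 genes with at least 20 CPM in the 50 ng/ml library and at least 2-fold more than in the 0 ng/ml library, the genes of the domain left out. All cells of the 0 ng/ml library served to draw this set. Of the 98 measured, 7 were at least 1.5-fold higher in Meg3-high cells and 6 lower (4.36% and 1.77% of all genes at this level). At full depth the counts were 4 and 2, with 1.42% and 0.512% of all genes. The median log2 ratio was 0.07, and 0.10 at full depth. The counting interval lay wholly above 1 for 8 of the 98 and wholly below 1 for 5, and at full depth for 23 and 9. Such intervals were not counted over all genes. The genes at least 1.5-fold higher in Meg3-high cells at 35000 UMIs were Ccnd2, Dnmt3l, Lmo4, Noct, Sox11, Timm21 and Trh. Ccnd2, cyclin D2, stood at 2.89 CPM in Meg3-zero, 8.11 in middle and 10.8 in Meg3-high cells (3.74, 1.86 to 8.33). Sox11, a transcription factor of the early neural lineage, stood at 3.75, 5.47 and 8.40 CPM (2.24, 1.16 to 4.61). Trh, the precursor of thyrotropin-releasing hormone, stood at 12.4, 19.3 and 25 CPM (2.01, 1.4 to 2.94). Ccnd2 and Sox11 kept the same size at full depth, 3.73 (2.55 to 5.60) and 2.26 (1.55 to 3.36). Trh did not, at 1.44 (1.2 to 1.75), and Lmo4 (1.34), Noct (1.39) and Timm21 (1.26) were also under 1.5-fold there. Those lower were Gm19705, Gm26564, Pdzd4, Rhox5, Zfp459 and Zscan4d. At full depth Gm19705 (0.983), Gm26564 (0.885), Pdzd4 (0.709) and Zfp459 (0.848) were no longer 1.5-fold lower, the UMIs of Zscan4d in the zero class at 35000 UMIs lay in 1 cell, and Rhox5 is described below.

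Naive pluripotency genes were mostly level between the classes, with a pair of exceptions. Of 23 listed, 21 were measured, 0 were at least 1.5-fold higher in Meg3-high cells, 2 were lower (4.36% and 1.77% of all genes at this level) and the median log2 ratio was -0.08. The counting interval lay wholly below 1 for 6 of them and wholly above 1 for 0, and at full depth for 7 and 1. The share of all genes with such intervals was not counted, so these counts have no background. Nanog stood at 307 and 296 CPM in Meg3-zero and Meg3-high cells (0.966, 0.889 to 1.05), Esrrb at 88.9 and 90.0 CPM (1.01, 0.869 to 1.18), and Klf4 at 65.5 in both (1.00, 0.836 to 1.2). Zfp42 was slightly lower in Meg3-high cells (488 and 428 CPM; 0.876, 0.819 to 0.936), as was Klf2 (424 and 383 CPM; 0.904, 0.841 to 0.971). The 2 exceptions were Dppa3 and Sox15.

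Dppa3 was the naive gene that went most clearly against Meg3. Also known as Stella, it is a maternal factor that protects methylation in the early embryo and blocks the action of Uhrf1 in oocytes. Its level was 130 CPM in Meg3-zero (449 UMIs), 75.6 in middle and 47.5 in Meg3-high cells (198 UMIs), so that it was 2.73 times as high in Meg3-zero as in Meg3-high cells (2.3 to 3.24). The share of cells with a Dppa3 UMI at full depth was alike, 77.8%, 75.9% and 76.5% of the 3 classes. At that depth the number of UMIs per cell differed, with medians of 5, 4 and 2 and upper quartiles of 14.5, 13 and 8. The classes overlapped widely, from 0 to 120 UMIs in Meg3-zero and from 0 to 86 in Meg3-high cells. After thinning, 33 of 99 Meg3-zero, 54 of 141 middle and 54 of 119 Meg3-high cells had no Dppa3 UMI. The share of cells with a Dppa3 UMI was thus lowest in Meg3-high cells after thinning. With classes drawn by Rian, the ratio of high over zero was 0.344, near the 0.367 found with Meg3. Sox15, a transcription factor of the SOX family, stood at 10.7 and 5.76 CPM (0.540, 0.309 to 0.926). It was no longer 1.5-fold lower with doublets left out (0.725, 0.433 to 1.21), with classes from thinned counts (0.833, 0.511 to 1.34) or with classes by Rian (0.840).

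Rhox5, an X-linked homeobox gene whose promoter is held silent by DNA methylation, had the lowest ratio of the 12 genes named as lower. It stood at 51.1 CPM in Meg3-zero, 40.3 in middle and 14.4 in Meg3-high cells (0.282, 0.207 to 0.380). It was found in few cells, 24 of 99 and 20 of 119 after thinning. The cell with the most held 23.2% of the zero class's UMIs and 33.3% of the high class's, and without both the ratio was 0.244. That leaves other rich cells in: the Meg3-zero cells with the most held 41, 39, 36 and 18 UMIs, where the class median was 0. At full depth the share of cells with Rhox5 was alike, 30.3%, 34.0% and 28.6% of the 3 classes. Its Spearman rho with Meg3 at 35000 UMIs was -0.03. The ratio was 0.428 at 63000 UMIs, 0.429 with classes from thinned counts, 0.444 with classes by Rian and 0.557 with all cells with a Meg3 UMI as the high class.

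**Figure D2:**
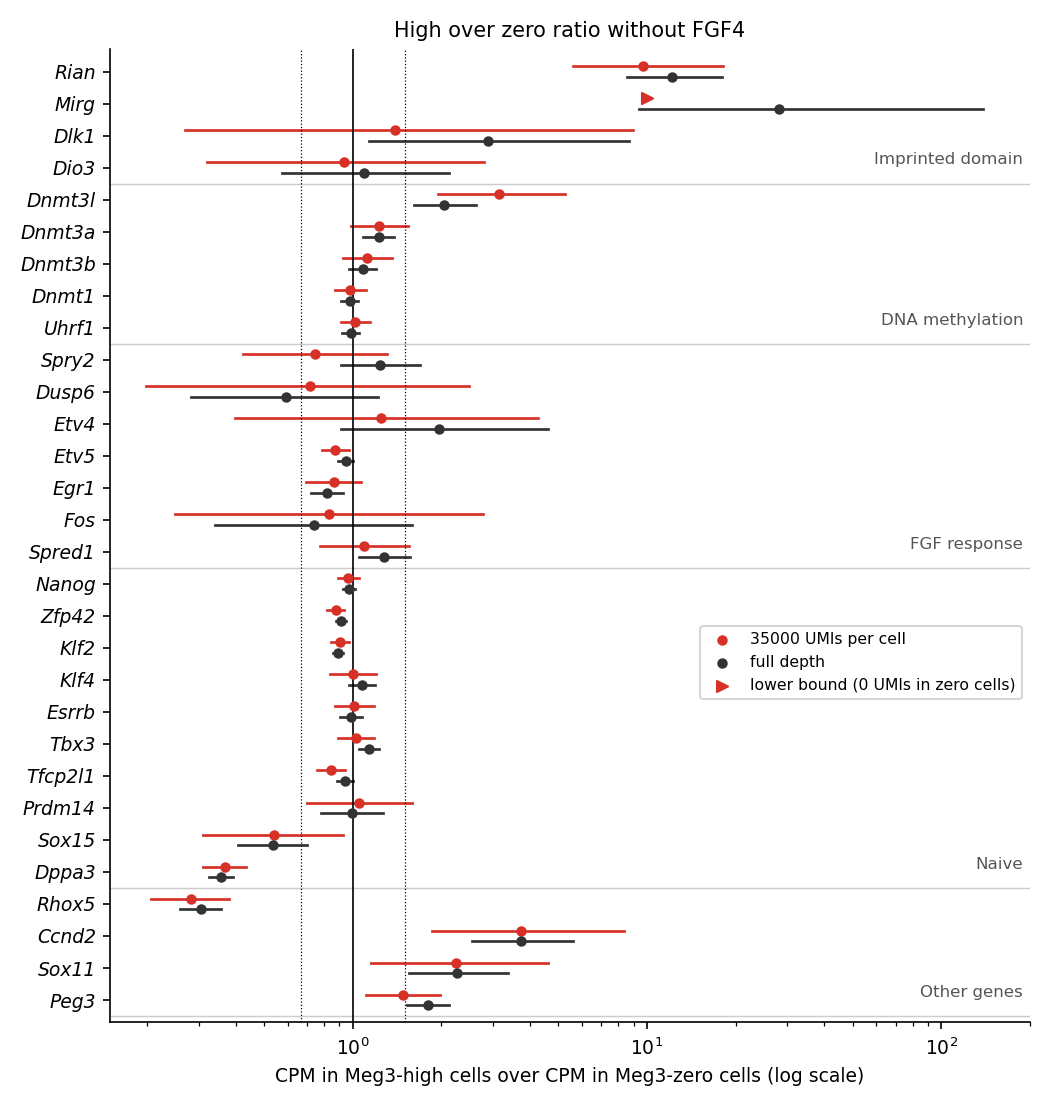
Ratio of CPM in Meg3-high over Meg3-zero cells of the 0 ng/ml library (log axis) at 35000 UMIs per cell (red) and at full depth (black), with 95% counting intervals. Dotted lines mark 1.5-fold either way. The arrowhead is the ratio with 0 UMIs in Meg3-zero cells set to 3, which is not a lower bound although the key marks it as one. Rian (9.69), Mirg and Dnmt3l (3.14) lie to the right, Dppa3 (0.367) and Rhox5 (0.282) to the left, and most FGF and naive genes near 1.

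Among all 5428 genes with at least 20 CPM, 41 were at least 1.5-fold higher in Meg3-high cells (0.755%) and 27 lower (0.497%). At full depth 16 were higher (0.295%) and 11 lower (0.203%). Rian lay under this level, at 4.04 to 39.1 CPM. The 12 named genes in each direction had the interval bounds farthest from 1. Over 15 alternatives, 0 of the 12 higher and 2 of the 12 lower, Rhox5 and Dppa3, stayed past 1.5-fold in all. The highest ratios among those higher in Meg3-high cells were those of the olfactory receptor gene Olfr889 (14.1 and 36.7 CPM; 2.60, 1.87 to 3.66) and Terf2ip, a telomere-binding protein (13.0 and 33.6 CPM; 2.59, 1.84 to 3.71). Olfr889 was found in 17 Meg3-zero and 24 Meg3-high cells, and its ratio was 1.45 at 63000 UMIs. Of the Terf2ip UMIs in Meg3-high cells, 55% lay in 1 cell, and without the top cell of each class its ratio was 1.28. Ttn, the titin gene, was more evenly spread (51.9 and 86.9 CPM; 1.67, 1.4 to 2.01), found in 72 of 99 and 98 of 119 cells. Aldh1a3, a retinal dehydrogenase that makes retinoic acid, had most in the middle class, with 17.3, 47.6 and 33.6 CPM, and a ratio of 1.01 with classes by Rian. Ercc5, Fmr1nb, Plaat3 and Dcxr had ratios of 1.85, 1.76, 1.73 and 1.68, and for Plaat3 it was 1.21 at full depth.

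Another 4 of these 12 rested on 3 cells. Zfas1, Snhg1 and Snhg5 are hosts of small nucleolar RNAs, and Ddit4 is induced by stress. Their ratios were 1.87, 1.73, 1.6 and 1.87. In 3 Meg3-high cells the summed UMIs of 14 snoRNA hosts (a list made after the values were seen) were 456, 465 and 512 at 35000 UMIs, where the median of the intact cells was 45 and the next cell had 139. Without these 3 cells, and with the classes ranked again (99 against 118 cells), the ratios were 1.12 for Zfas1, 1.16 for Snhg1, 1.19 for Snhg5 and 1.12 for Ddit4. Those of Rian (9.87), Dnmt3l (3.05) and Dppa3 (0.362) stayed near their values.

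Of the 12 lower in Meg3-high cells, Rhox5 and Dppa3 came first. Tmem80 (38.4 and 15.6 CPM; 0.407, 0.297 to 0.551) was found in 22 and 20 cells, and was at 0.905 (0.699 to 1.17) with classes by Rian. Xaf1, an interferon-induced gene, stood at 152 and 85.5 CPM (0.562, 0.49 to 0.644, and 0.731 at full depth). Its median at full depth was 3 UMIs in each class, and it was found in 78.8% of Meg3-zero and 79.8% of Meg3-high cells. The highest cell of these classes held 89 and 30 UMIs after thinning. Others were Churc1 (0.648), Exoc1 (0.617), Pglyrp1 (0.582), Itpka (0.639) and H2-M5 (0.627), of which H2-M5 was at 0.916 at full depth. Nelfa (0.588) and Lonp2 (0.443) rested on 1 Meg3-zero cell that held 44.7% and 51.4% of the class's UMIs. Of the 201 UMIs of 2-cell-like genes in the zero class, 200 lay in 1 cell. Genes of the 2-cell-like state, named after the 2-cell embryo, are switched on in rare stem cells, and 3 cells of the library had at least 20 UMIs of them: 1 Meg3-zero and 2 middle cells. Without these 3 cells Nelfa had a ratio of 1.15 and Lonp2 of 1.16, and 13 genes in place of 27 were at least 1.5-fold lower.

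**Figure D3:**
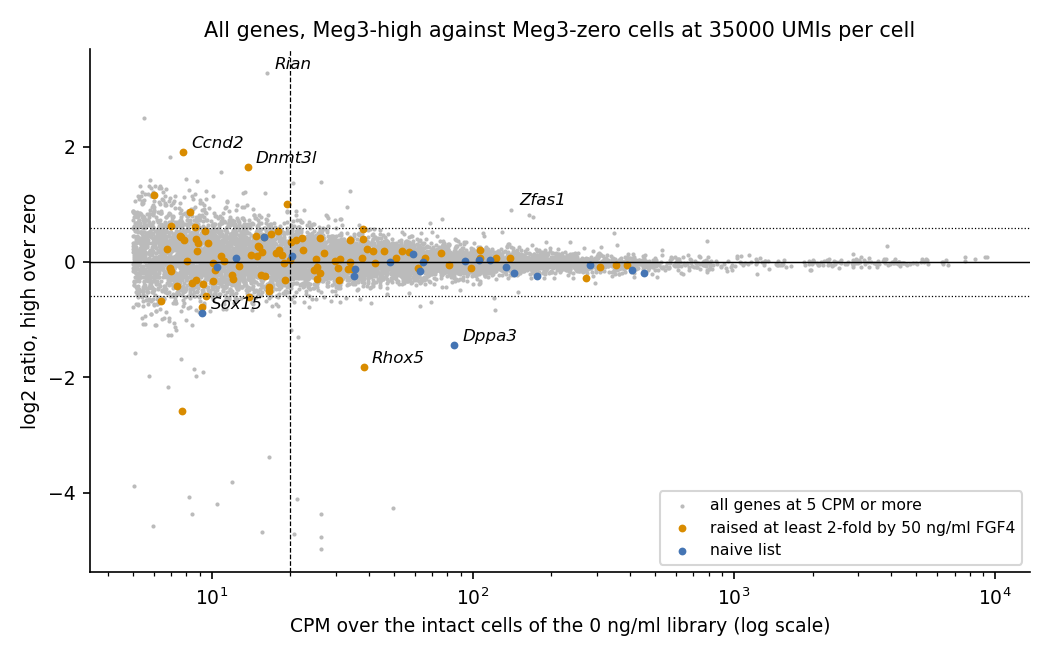
Each point is 1 gene with at least 5 CPM: its CPM over the intact cells of the 0 ng/ml library (horizontal, log axis) and its log2 ratio of Meg3-high over Meg3-zero cells (vertical), with a sum of 0 UMIs set to 3, dotted lines at 1.5-fold and a dashed line at 20 CPM. Rian stands apart at the top, and the set higher at 50 ng/ml (orange) and the naive list (blue) lie mostly along 0, with Ccnd2, Dnmt3l, Sox11 and Trh above and Zscan4d, Rhox5 and Dppa3 below among the exceptions.

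Other gene lists were read against the same background, 4.36% higher and 1.77% lower. Among 38 other imprinted genes, 21 were measured, 1 was at least 1.5-fold higher in Meg3-high cells (Zrsr1, 4.91 and 10.3 CPM; 2.10, 1.18 to 3.94), 0 were lower and the median log2 ratio was 0.11. Peg3, a zinc finger gene, stood at 22.2 and 32.9 CPM (1.48, 1.11 to 1.98), and Kcnq1ot1 at 209 and 267 CPM (1.28, 1.16 to 1.4). Kcnq1ot1 also belongs to a list of 8 nuclear non-coding RNAs made after the values were seen. Of 5 measured, 1 was at least 1.5-fold higher, 0 were lower and the median log2 ratio was 0.27. The interval lay wholly above 1 for 3 and wholly below 1 for 0, and at full depth for 3 and 1, counts not made for all genes. Malat1, an abundant RNA of nuclear speckles, stood at 3533 CPM in Meg3-zero, 3759 in middle and 4261 in Meg3-high cells (1.21, 1.18 to 1.23). Neat1, the scaffold of paraspeckles, stood at 11.3, 13.0 and 21.8 CPM (1.94, 1.32 to 2.9), and at 1.09 (0.783 to 1.52) with classes by Rian. Firre (0.718, 0.504 to 1.02), Tsix (1.04, 0.854 to 1.26) and Xist (1.09, 0.543 to 2.24) had intervals that held 1. Meg3 is itself a mainly nuclear RNA, and the part of nuclear RNA content in the Rian and Mirg results was not tested. Of 11 measured formative genes, those of the state after naive pluripotency, 2 were higher (Sox11 and Sox3), 1 was lower (Foxd3, 0.524, but 1.03 at full depth) and the median was 0.21. Of 20 S phase and 22 G2/M genes, 0 were past 1.5-fold either way, with medians of 0.00 and -0.01. Of 9 measured ATF4 targets, 2 were higher (Chac1 and Trib3), 0 were lower and the median was 0.17. Of 13 mitochondrial, 15 glycolysis and 11 p53 target genes, 0 were past 1.5-fold. Their intervals lay wholly above 1 for 9, 5 and 4 and wholly below 1 for 0. Of 12 general pluripotency and 7 heat shock genes, intervals lay above 1 for 0 and below 1 for 4 and 3. Such intervals were not counted over all genes. Clusters of the cells did not follow the classes closely. In 4 clusters formed without Meg3, Rian and Mirg, the share of Meg3-zero cells ran from 26.1 to 30% and that of Meg3-high cells from 28 to 40.5%. With 8 finer clusters, the highest share of Meg3-zero cells was 42.1% (26.3 to 59.2%), in a cluster of 38 cells.

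With FGF4, few cells lacked Meg3. At an equal 29000 UMIs per cell, 49.3% of the intact cells had no Meg3 UMI at 0 ng/ml (44.0 to 54.6%), 11.3% at 5 ng/ml (9.09 to 13.9%) and 9.15% at 50 ng/ml (7.24 to 11.4%). Without thinning the shares were 27.6%, 4.39% and 4.14%. Cells with a Meg3 UMI also had more of it: a mean of 2.86 UMIs at 0, 6.44 at 5 and 6.72 at 50 ng/ml. The mean over all cells was 1.45, 5.71 and 6.11 UMIs. The gain over 0 ng/ml was thus 3.93-fold and 4.21-fold over all cells, and 2.25-fold and 2.35-fold within cells with a Meg3 UMI. The gain within cells with a Meg3 UMI depended on depth, because depth decides which cells have one. It was 2.97-fold and 3.09-fold at 60000 UMIs, and 2.90-fold and 2.91-fold without thinning. Each dose was 1 library, so these differences carry no replicate check.

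**Figure D4:**
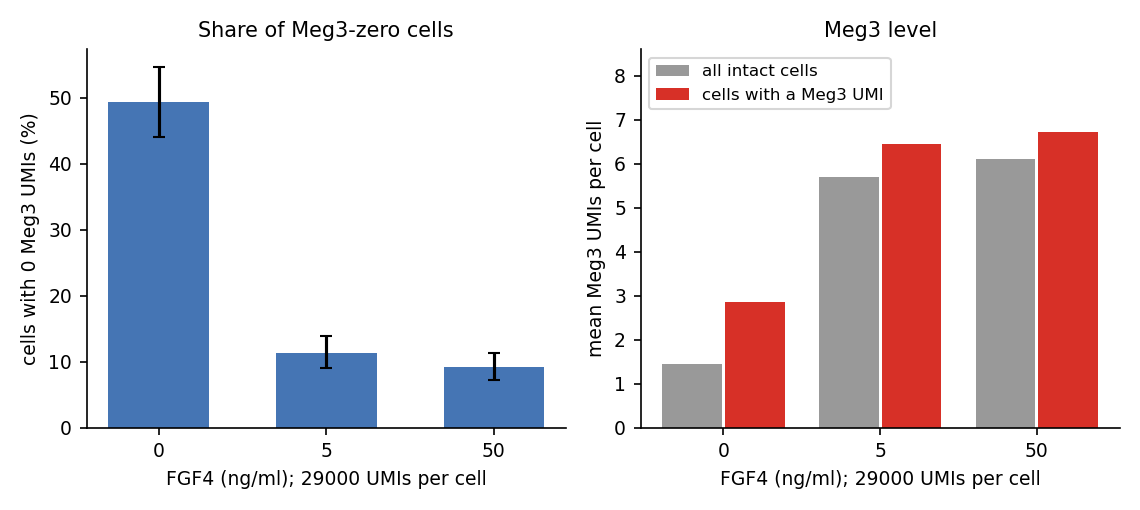
Left, percent of intact cells with 0 Meg3 UMIs at 0, 5 and 50 ng/ml FGF4 (bars, with exact 95% binomial intervals); right, mean Meg3 UMIs per cell over all intact cells (grey) and over cells with a Meg3 UMI (red), all at 29000 UMIs per cell. The share of cells without Meg3 was 49.3% at 0 and 9.15% at 50 ng/ml, and the mean in cells with a Meg3 UMI was 2.86 and 6.72.

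The same rule gave 31 Meg3-zero and 235 Meg3-high cells at 5 ng/ml, and 33 and 266 at 50 ng/ml. Rian separated these classes too, with full-depth ratios of 16.3 (10.4 to 27.2) and 26.6 (15.2 to 51.5). Mirg stood at 0.741 and 22 CPM at 5 ng/ml (29.8, 8.20 to 246) and at 0.366 and 24.6 CPM at 50 ng/ml, with 2 and 1 UMIs in the zero classes. Dppa3 was again lower in Meg3-high cells, at 57.4 and 22.9 CPM (0.398, 0.333 to 0.479) and at 102 and 20.4 CPM (0.200, 0.173 to 0.232). So were Rhox5, at 0.362 (0.325 to 0.403) and 0.590 (0.535 to 0.652), and Sox15, at 0.471 (0.341 to 0.664) and 0.583 (0.423 to 0.818). Kcnq1ot1 was higher in Meg3-high cells of all 3 libraries, at 1.29, 1.38 and 1.3, and so was Ttn, at 1.49, 1.23 and 1.86. Peg3 was not, at 1.80 (1.53 to 2.13) without FGF4, then 0.883 (0.728 to 1.08) and 1.03 (0.82 to 1.3).

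Dnmt3l and the pluripotency lists differed more between libraries. With FGF4, Dnmt3l was at 156 and 157 CPM in Meg3-zero and Meg3-high cells at 5 ng/ml (1.01, 0.913 to 1.12) and at 139 and 186 CPM at 50 ng/ml (1.34, 1.21 to 1.49), all at full depth. Of the broader set of 111, 39 of 110 measured at 5 ng/ml and 42 of 111 at 50 ng/ml were at least 1.5-fold higher in Meg3-high cells at 29000 UMIs, and 2 and 4 were lower. Among all genes with at least 5 CPM, 11.4% were higher and 5.16% lower at 5 ng/ml, and 10% were higher and 6.35% lower at 50 ng/ml. The median log2 ratios of the set were 0.39 and 0.46 there, beside 0.07 without FGF4 and 0.06 and 0.03 for all genes at 5 and 50 ng/ml. The 50 ng/ml library also served to draw the set. For FGF and ERK targets they were 0.41 and 0.69, beside -0.11, and for naive genes -0.29 and -0.37, beside -0.08. Tbx3, a naive transcription factor, had ratios of 1.13 (1.05 to 1.22), 0.618 (0.537 to 0.715) and 0.567 (0.485 to 0.665) at 0, 5 and 50 ng/ml at full depth. The zero classes with FGF4 held few cells, and these differences between libraries were not tested.

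**Figure D5:**
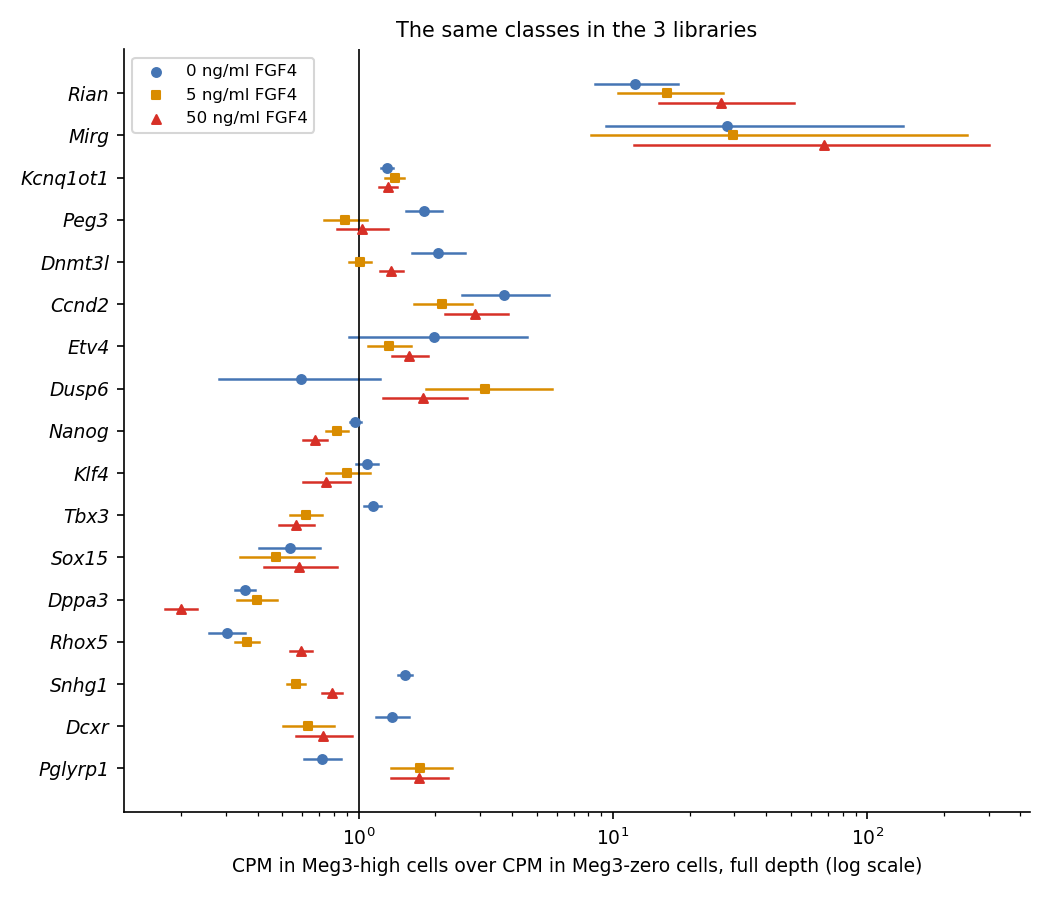
Full-depth ratio of CPM in Meg3-high over Meg3-zero cells (log axis) at 0 (circles), 5 (squares) and 50 ng/ml FGF4 (triangles), with 95% counting intervals. Rian and Mirg lie to the right and Dppa3, Rhox5 and Sox15 to the left at each dose, while Tbx3, Snhg1, Dcxr and Pglyrp1 lie on different sides without and with FGF4.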

How the data were processed

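The deposited files held UMI counts per gene and cell for 3 libraries (1 per dose), which the authors made with Cell Ranger (version 4.0.0 in the file headers) on the mm10 build that the submitters' processing notes name. The labels state neither how barcodes were chosen nor which libraries were detached with trypsin and which with Accutase. The libraries held 42726514, 75184072 and 81409975 UMIs at 0, 5 and 50 ng/ml.

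Intact cells had at most 10% mitochondrial UMIs and a total within 3-fold of the library median. Cells were thinned without replacement to 35000 UMIs (29000 for comparisons with the other doses), counts were summed by class and divided by the class total (CPM). Ratios carry conditional binomial intervals, shares exact binomial ones, all for counting error only, at 95%; a sum of 0 was set to 3 UMIs. PCR duplicates are merged by UMIs. Genes under 20 CPM (5 CPM for list members) were left out. Named genes were the 12 in each direction past 1.5-fold whose interval bound lay farthest from 1, without predicted and ribosomal protein genes, plus list members and the domain's genes. One of these genes is not reported here. Classes, the 26 lists and the members were chosen with earlier results of these data known; 2 more lists were made after values were seen. No doublet was removed; Scrublet called 4, 4 and 3 cells of the zero, middle and high classes. Clusters used Leiden at resolution 0.5 (scanpy 1.11.5). The scripts were tested on simulated data. Coordinates are from GENCODE M21, in which 32158 of 32285 gene IDs matched. Python 3.11.15, numpy 2.4.6 and scipy 1.17.1 were used.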

Additional observations from a re-analysis of the deposited data

Results flagged for a closer look

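Among the named genes, the genes of the domain, Dnmt3l, Malat1 and Neat1 (the last 2 added after values were seen), 4 had a counting interval on one side of 1 without FGF4 and on the other side at both doses of FGF4; the difference between libraries was not tested. Pglyrp1, a peptidoglycan recognition protein, had a ratio of Meg3-high over Meg3-zero cells of 0.582 (0.423 to 0.798) at 0 ng/ml, 1.65 (1.02 to 2.83) at 5 and 1.85 (1.18 to 3.08) at 50 ng/ml. Dcxr, a carbonyl reductase, had 1.68 (1.29 to 2.20), then 0.573 (0.388 to 0.870) and 0.586 (0.407 to 0.864). Snhg1 had 1.73 (1.55 to 1.92), then 0.654 (0.565 to 0.760) and 0.685 (0.587 to 0.804). Without the 3 cells rich in snoRNA hosts, the Snhg1 ratio at 0 ng/ml was 1.16 (1.03 to 1.3). Neat1 had 1.94 (1.32 to 2.9), then 0.285 (0.184 to 0.452) and 0.490 (0.297 to 0.845), from 31 and 20 UMIs in the zero classes with FGF4; without doublets it was 1.33 (0.921 to 1.93) at 0 ng/ml. In a second random draw at 0 ng/ml, Pglyrp1 was at 0.875 (0.633 to 1.21) and Dcxr at 1.21 (0.929 to 1.57), intervals that hold 1, and at full depth they were at 0.719 (0.609 to 0.848) and 1.35 (1.16 to 1.57).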

How the results depend on the processing

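Rian stayed within its counting interval in the 14 alternatives run on it, from 5.93 (all cells with a Meg3 UMI) to 16.6 (a second random draw). Mirg left its interval in 1 of 15, with all cells with a Meg3 UMI as the high class. With the zero class set to 3 Mirg UMIs, the ratio there was 5.71, which is not a lower bound. The lower bound of the counting interval was 4.46. Dnmt3l left its own interval in 2 of 15 without changing direction, at 1.85 with classes drawn from thinned counts and 1.78 with classes by Rian. The medians of the FGF and ERK, FGF-raised and naive lists kept within their members' median intervals. Those intervals are as wide as for single genes, so this says little of how stable a list median is. The first median ran from -0.12 to 0.20 over the alternatives, so its sign is not fixed. The FGF-raised median ran from 0.019 to 0.121 and the naive median from -0.081 to -0.009. Alternatives without the cells rich in snoRNA hosts, without 2-cell-like cells and without the top cell per gene were chosen after seeing the data.

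The counts of genes past 1.5-fold depended most on the settings. Against 41 higher and 27 lower, they were 16 and 11 at full depth, 11 and 17 at 63000 UMIs, 16 and 15 in depth-paired cells, 14 and 15 as mean shares per cell, 20 and 17 with classes from thinned counts, 94 and 57 with the top 1 in 6 cells, 18 and 10 with all cells with a Meg3 UMI, 3 and 10 at 2-fold, 401 and 163 at 5 CPM, and 5 and 5 at 50 CPM. With classes by Rian 13 were higher, and without 2-cell-like cells 13 were lower. Among the named genes Nelfa reversed, to 1.15 without 2-cell-like cells and 1.03 without the top cell of each class, and Lonp2 to 1.16 without 2-cell-like cells.

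Shares of cells without Meg3 moved with depth, to 36.2%, 5.84% and 5.08% at 60000 UMIs and 27.6%, 4.39% and 4.14% without thinning, in the order of the doses. A 5% mitochondrial limit gave 29.6% at 0 ng/ml, of 135 cells. The highest cluster share was 42.1% at resolution 1.0. No paired analysis was possible because each dose was 1 library. With 1 library, no spread between cultures could be measured, and depth limits genes of low level most: 4.36% of genes at 5 CPM or more were past 1.5-fold higher, against 0.755% at 20 CPM or more.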
